A study of Mus musculus with 4 samples.

Results

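The genes described here build elastic fibres and the fibrillin microfibrils on which elastin is laid down. They were chosen by name as a list of 10: Fbn1, Fbn2, Eln, Mfap2, Mfap4, Mfap5, Fbln5, Emilin1, Lox and Loxl1. Of these, 9 were measured by at least 1 probe set whose annotation named that gene alone, out of 18193 such genes on the array. No probe set in the annotation used here named Fbn1, the main fibrillin of adult tissue, which was therefore not analysed here.

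The arrays measured RNA of cultured brown-like adipocytes. Their precursors were stromal vascular cells of epididymal white fat, which remain when mature fat cells are removed. Donors were male mice aged 4 months, wild-type or homozygous for a mutant Lgr4 allele, and each genotype was read on 2 arrays labelled as biological replicates. Lgr4 is a receptor for R-spondins that strengthens Wnt signalling, and the study concerned its part in brown-like differentiation. Both genotypes received the same medium, with serum and fibroblast growth factor. Both were induced with insulin, isobutylmethylxanthine, dexamethasone, the thyroid hormone T3 and the PPAR gamma agonist troglitazone for 48 h, and kept in insulin, T3 and troglitazone for 6 more days. The labels do not describe the Lgr4 mutation, or say whether each array came from separate animals or from pools. The p-values below therefore measure the spread between these arrays, which may be technical.

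An elastic fibre has a core of cross-linked elastin and a mantle of microfibrils, which are bundles of fibrillin with smaller glycoproteins attached. Tropoelastin, the soluble product of Eln, is placed on the microfibril with the help of fibulins and is then cross-linked by copper-dependent amine oxidases of the lysyl oxidase family. Microfibrils also hold latent TGF-beta and bone morphogenetic proteins, and fibroblasts and smooth muscle cells are well known as makers of both parts.

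Fibrillin-2, one of its bound glycoproteins and the cross-linking enzyme Lox were lower in the mutant cultures. The other microfibril genes measured on this list did not pass. All values are log2 signals after RMA (robust multi-array averaging), and a difference is mutant minus wild-type on that scale. Fbn2, Mfap5 and Lox fell by 2.17, 1.32 and 0.82, Eln rose by 0.45, and Loxl1, Fbln5, Mfap4, Emilin1 and Mfap2 did not pass. In limma with Benjamini-Hochberg adjustment over 13173 genes, 4 of 9 genes passed an adjusted p of 0.05, where 29.8% of all genes tested did. The 3 lower genes compare with 18.7% of all genes that passed as lower, and the 1 higher gene with 11.1% that passed as higher. In 6 of the 9 genes the values of the genotypes did not overlap, which was also so for 68.8% of all genes tested, so neither count sets the list apart. The median difference over the 9 genes was -0.25, against -0.03 over all genes tested. Without wild-type replicate 1 the median over the 9 genes was -0.42.

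**Figure D1:**
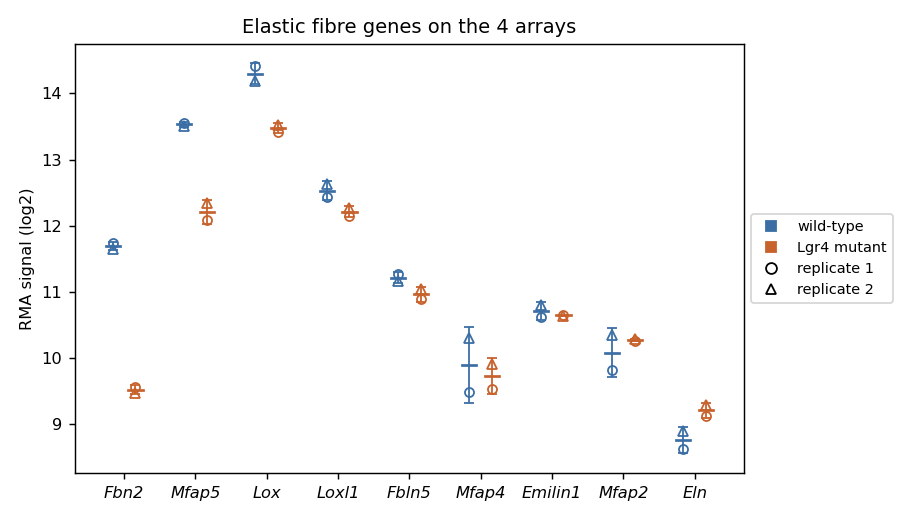
Log2 signal (vertical axis) of the 9 genes on each array, ordered by the difference between genotypes; circles are replicate 1, triangles replicate 2, horizontal bars the means and error bars the SD (n = 2). Fbn2, Mfap5 and Lox lie clearly lower in the mutant, Eln lies higher, and the wild-type values of Mfap4 and Mfap2 are spread widely.

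Fbn2 encodes fibrillin-2, the fibrillin best known from developing tissue. Its signal was 11.74 and 11.65 with intact Lgr4, against 9.57 and 9.48 in the mutants. Both mutant arrays were low, the replicates lay close together in each genotype, and the nearest values of the genotypes were 2.08 apart. The mean went from 11.70 ± 0.065 to 9.53 ± 0.064 (SD, n = 2), a difference of -2.17 (SE 0.096, limma adjusted p = 2.13e-06), or 4.51-fold lower. This was the 6th lowest difference among the 13173 genes tested. The other Fbn2 probe set read 11.05 and 11.08 against 9.18 and 9.12, a difference of -1.91 (SE 0.097). Over 12 other settings the Fbn2 difference stayed between -2.22 and -2.04, so no single array or choice of scaling decided it.

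The microfibril-associated glycoproteins did not move alike. Mfap5 encodes MAGP-2, a small protein that binds fibrillin and carries an integrin-binding site. Wild-type cultures gave 13.56 and 13.51, and mutant cultures gave 12.08 and 12.34. The genotypes were separated by a gap of 1.17, more than the 0.26 between the mutant replicates. The difference was -1.32 (SE 0.11, limma adjusted p = 8.19e-05), or 2.50-fold lower, and the other Mfap5 probe set was 3.10-fold lower.

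Mfap2 encodes MAGP-1, the related glycoprotein that binds fibrillin and TGF-beta family ligands. Wild-type cultures gave 9.82 and 10.35, against 10.27 and 10.29 for the mutant, so both mutant values lay between the wild-type ones. The difference of 0.19 did not pass (SE 0.16, 95% interval -0.17 to 0.56, limma adjusted p = 0.395). Its direction rests on which wild-type array is kept: the difference was 0.46 without wild-type replicate 2, which passed (limma adjusted p = 0.00287), and -0.07 without wild-type replicate 1. A second Mfap2 probe set was level, at 8.57 and 8.60 against 8.53 and 8.66.

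Set against each other within each array, Mfap2 gained on Mfap5. The log2 ratio of Mfap2 to Mfap5 signal went from -3.74 and -3.16 (wild-type) to -1.82 and -2.05 (mutant), a shift of 1.51 with no overlap between genotypes. An exact permutation test (2-sided) gave p = 0.333 (adjusted over the 2 ratios computed, 0.333), the smallest p that 2 arrays against 2 can give. The ratio describes unequal change of the signals on these arrays, which a test of 2 arrays against 2 cannot establish. It does not show how much of either transcript was present, since the probe sets differ in response.

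Mfap4 encodes a fibrinogen-related protein that binds tropoelastin and fibrillin. Wild-type signals were 9.49 and 10.31, and both mutant signals, 9.54 and 9.92, lay between them. Its wild-type SD of 0.58 was the widest of the 9 genes, and the difference of -0.17 did not pass (SE 0.24, 95% interval -0.72 to 0.38, limma adjusted p = 0.617). It was -0.58 and passed (limma adjusted p = 0.0152) without wild-type replicate 1. The sign turned without wild-type replicate 2 (0.23) and without mutant replicate 1 (0.02).

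Eln was the single gene of the list that passed as higher. Its brighter probe set read 8.62 and 8.91 for wild-type, and 9.13 and 9.29 for mutant cultures. The genotypes did not overlap, but the gap of 0.22 was smaller than the 0.29 between the wild-type replicates. The mean went from 8.77 ± 0.20 to 9.21 ± 0.12 (SD, n = 2), a difference of 0.45 (SE 0.12, limma adjusted p = 0.0260), or 1.36-fold higher. A dimmer Eln probe set read 6.84 and 6.94 against 6.93 and 7.23, overlapped, and did not pass (0.19, limma adjusted p = 0.364 among all probe sets). The Eln call ended without mutant replicate 2 (0.37, limma adjusted p = 0.189) and when both probe sets were averaged (0.32, limma adjusted p = 0.0734). It also ended when p-values were adjusted over all probe sets (limma adjusted p = 0.0567), whereas those of Fbn2, Mfap5 and Lox held under all 12 settings.

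Fbln5 and Emilin1 encode proteins that sit where elastin meets the microfibril. Fibulin-5 binds tropoelastin and integrins and is needed for orderly elastic fibres. Fbln5 went from 11.28 and 11.16 to 10.89 and 11.05 in the mutant, slightly lower with no overlap. The difference of -0.25 did not pass (SE 0.10, 95% interval -0.49 to -0.02, limma adjusted p = 0.0984), and it did without wild-type replicate 2 (-0.31, limma adjusted p = 0.0293). A second Fbln5 probe set, with mean signal under the filter on low signals (6.13), read 5.28 and 5.42 against 5.40 and 5.59.

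Emilin1 encodes a glycoprotein of the elastin surface that restrains TGF-beta processing. Its signals were 10.62 and 10.81 for wild-type, against 10.66 and 10.65, with the mutant values inside the wild-type range. Its difference of -0.06 (SE 0.10, limma adjusted p = 0.674) had a 95% interval of -0.30 to 0.17, and its sign turned without wild-type replicate 2 (0.03). The other Emilin1 probe set read 8.22 and 8.64 against 8.48 and 8.35.

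**Figure D2:**
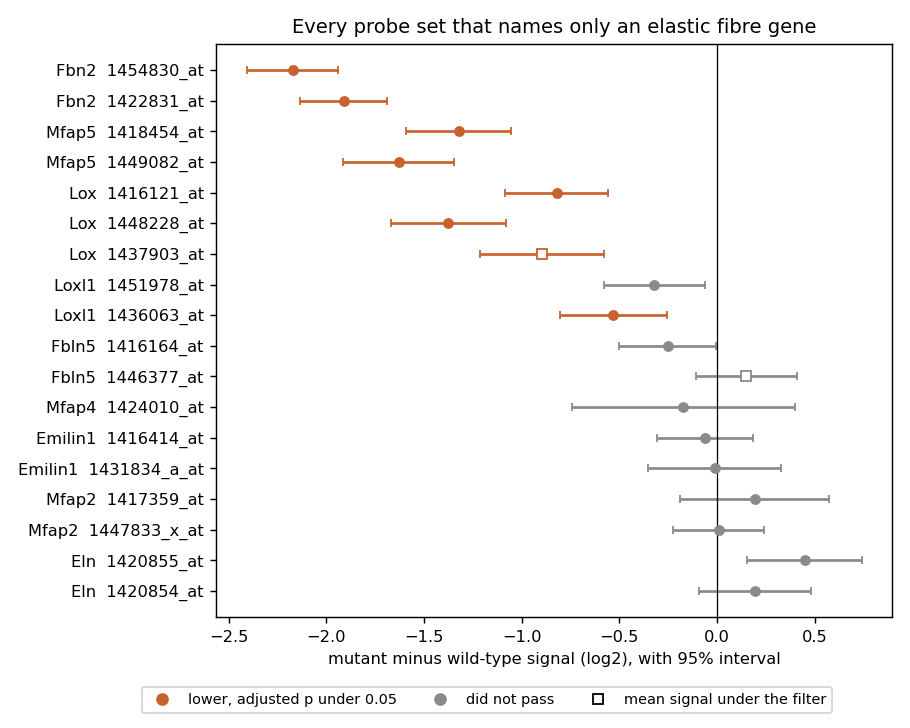
Difference in log2 signal, mutant minus wild-type (horizontal axis), of all 18 probe sets naming only a gene of the list, with 95% limma intervals (2 arrays a genotype); open squares have a mean signal under the filter of 6.13. Both Fbn2, both Mfap5 and all 3 Lox probe sets lie below 0 and passed, whereas neither Eln probe set passed among all probe sets.

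The lysyl oxidases catalyse the first step of cross-linking, turning lysines of tropoelastin and collagen into reactive aldehydes. Lox gave 14.41 and 14.19 for wild-type, against 13.43 and 13.53 for mutant cultures. Both mutant values lay below both wild-type values, by at least 0.66. The difference was -0.82 (SE 0.11, limma adjusted p = 9.48e-04), or 1.77-fold lower. The other Lox probe sets fell further or about as far, from 13.72 and 13.38 to 12.16 and 12.18 (-1.38, 2.59-fold) and, under the filter, from 5.46 and 5.39 to 4.34 and 4.72 (-0.90). The size of the fall thus depended on the probe set, between 1.77-fold and 2.59-fold, and its direction did not.

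Loxl1, whose product is tied to elastin through fibulin-5, went from 12.43 and 12.63 to 12.15 and 12.27 in the mutant. The genotypes did not overlap, and the difference of -0.32 lay just outside the threshold (SE 0.11, 95% interval -0.57 to -0.08, limma adjusted p = 0.0534). It passed under 6 of 12 other settings, with differences from -0.43 to -0.22 over all 12. Among these it passed with the replicate number as a block (limma adjusted p = 0.0188) and without wild-type replicate 1 (-0.42, limma adjusted p = 0.00850). The dimmer Loxl1 probe set read 9.55 and 9.82 against 9.12 and 9.20, and its difference of -0.53 passed among all probe sets (limma adjusted p = 0.0246). Within arrays, the log2 ratio of Lox to Loxl1 signal went from 1.97 and 1.56 to 1.27 and 1.26 in the mutant, a shift of -0.50 (exact permutation p = 0.333, 2-sided, the smallest possible).

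Over all 18 probe sets of the 9 genes, 8 passed, all of them lower, in a fit of every probe set in which 13.1% passed. These 8 were the 7 probe sets of Fbn2, Mfap5 and Lox and 1 of Loxl1, so several read the same gene. The 13.1% covers 45037 probe sets, many of them under the filter, whereas only 2 of the 18 lay under it. The 2 shares are therefore not alike and do not set the list apart. Of the 9 genes, 8 had more than 1 probe set, and only in Loxl1 did probe sets fall on different sides of the threshold in that fit. Replicates agreed better for some genes than for others. Wild-type replicate 2 read higher than replicate 1 for Mfap4 (by 0.81), Mfap2 (0.53), Eln (0.29), Loxl1 (0.20) and Emilin1 (0.18), and lower for Lox, Fbln5, Fbn2 and Mfap5. The median gap between replicates over the 9 genes was 0.20 for the wild-type pair and 0.12 for the mutant pair.

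**Figure D3:**
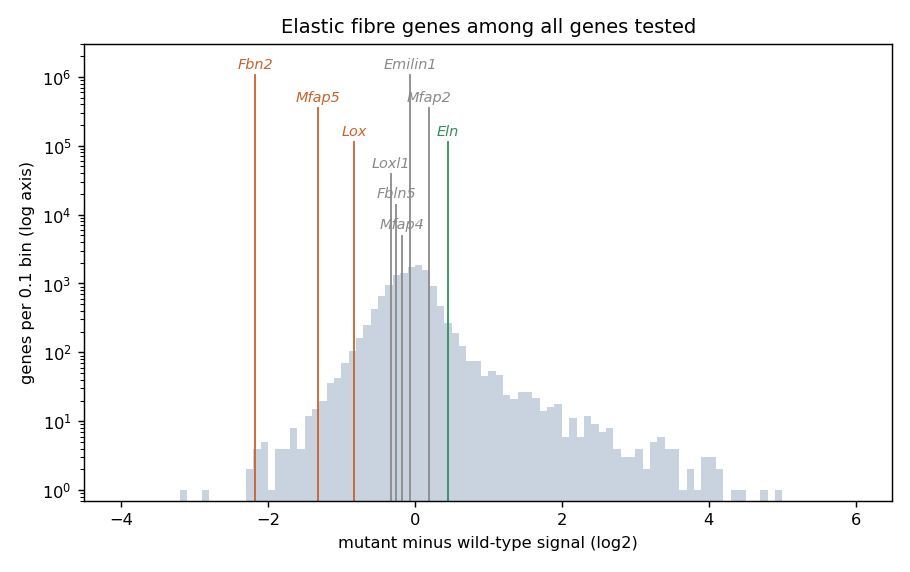
Number of genes (log axis) by difference in log2 signal, mutant minus wild-type, in bins of 0.1, for all 13173 genes tested; coloured lines mark the 9 genes (orange lower, green higher, grey did not pass). Fbn2, Mfap5 and Lox lie in the lower tail, and the other 6 genes between -0.32 and 0.45.

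The tail of falls is where Fbn2 and Mfap5 lay: both were at least 2-fold lower, as were 159 genes (1.21%) of all tested. Mfap5 was the 59th and Lox the 302nd lowest. Profiles over the 4 arrays, each centred on its own mean, were compared by Euclidean distance to find the genes most like Fbn2, a reference chosen after the values were seen. They were Pamr1 (distance 0.075), a peptidase-related secreted protein, Rgs5 (0.085), a marker of pericytes, and Ahr (0.13), the aryl hydrocarbon receptor. Rgs5 read 5.70 and 5.62 in the mutant, under the filter. Only 14 genes lay within 0.5 of Fbn2, but few genes fell that far, so the low count cannot be read as a shared role. Around Eln the nearest were Cdc42ep2 (0.041), Rpusd3 (0.055) and Pop5 (0.058), but 5215 genes lay within 0.5, so likeness to Eln over 4 arrays is not selective.

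Other genes of the system, from lists of 65 names, passed as lower more often than as higher. That also held for all genes tested (18.7% against 11.1%), and these shares stand beside the counts of each list below. Of 55 tested, 22 fell, 4 rose and 29 did not pass, with a median difference of -0.20. Thus 47.3% passed beside 29.8% of all genes. With the filter at the 60th percentile 25 of them passed, out of fewer tested, and 36.9% of all genes did. These lists were chosen with earlier results of these data known, so their share cannot be read as a test of them. Without mutant replicate 1, 14 passed instead of 26, in a fit where all genes passed less often too (14.1%).

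Among microfibril partners, 1 rose, 2 fell and 14 of 17 did not pass, and the median difference was 0.01. Ltbp2, a latent TGF-beta binding protein that attaches to fibrillin, read 11.12 and 11.24 against 10.20 and 10.34, a fall of 1.88-fold (-0.91, SE 0.10, limma adjusted p = 3.88e-04). Ltbp4, which works with fibulin-5 in elastin assembly, went the other way, from 7.05 and 7.70 to 8.24 and 8.40 (0.95, SE 0.19, limma adjusted p = 0.00722). Ltbp4 and Eln thus both passed as higher while Ltbp2 passed as lower. Adamts6, a protease that acts on microfibril components, fell by 0.73 (limma adjusted p = 0.00832). Among those that did not pass, and named after their values were seen, were the proteoglycans Dcn (0.01), Vcan (-0.11) and Bgn (-0.20) and perlecan, Hspg2 (0.19).

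Of 5 fibulins tested besides Fbln5, 3 fell and 1 rose. Fbln7 read 9.36 and 9.39 against 8.42 and 8.47 (-0.93, limma adjusted p = 1.97e-04), and Fbln2, a partner of fibrillin and elastin, read 13.78 and 13.95 against 13.09 and 13.24 (-0.70, limma adjusted p = 0.00203). Fbln1, a fibulin of the elastin core and basement membranes, rose from 9.10 and 9.60 to 9.86 and 10.08 (0.61, limma adjusted p = 0.0233). Hmcn1, a large relative, fell by 0.44 (limma adjusted p = 0.0122) and lay near the filter. The fibulins did not share a direction, and the calls of Fbln1 (limma adjusted p = 0.0783) and Hmcn1 (0.0509) ended without mutant replicate 2, that of Hmcn1 also without mutant replicate 1 (0.158).

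In the cross-linking and processing list, 6 of 11 fell, 1 rose and 4 did not pass, with a median of -0.45. Falls numbered 2 without mutant replicate 1 and 4 without mutant replicate 2, and rises 0 in each case. Loxl3, another lysyl oxidase, read 10.02 and 10.07 against 9.06 and 9.14 (-0.94, limma adjusted p = 2.07e-04). Loxl4 read 7.24 and 7.22 against 6.63 and 6.78 (-0.52, limma adjusted p = 0.00548), a call that ended without mutant replicate 1 (0.0896), and its other probe set differed by -0.13. All 4 lysyl oxidase genes measured here, Lox, Loxl1, Loxl3 and Loxl4, had lower mutant values with no overlap. Of all genes tested, 68.8% had no overlap in either direction. Among the lysyl oxidase genes Loxl1 alone did not pass. Pcsk5, a proprotein convertase, had the largest fall of the list, from 11.42 and 11.30 to 10.28 and 10.44 (SE 0.10, limma adjusted p = 2.55e-04). Of its other 4 probe sets the nearest fell by 0.89, and the dimmest, under the filter, differed by 0.18.

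Genes that serve Lox, named after their values were seen, moved less. Bmp1, the protease that releases active Lox from its propeptide, fell by 0.45 (limma adjusted p = 0.0304), and lost the call without either mutant array (limma adjusted p = 0.139 without replicate 1 and 0.0740 without replicate 2) and with its probe sets averaged (limma adjusted p = 0.642). Atp7a, the pump that loads copper, fell by 0.46 (limma adjusted p = 0.0109), and lost the call without mutant replicate 1 (limma adjusted p = 0.163). The copper chaperone Atox1 rose by 0.36 (limma adjusted p = 0.0477). The Atox1 call ended without wild-type replicate 1 (limma adjusted p = 0.0810) and without mutant replicate 1 (0.201) or 2 (0.200). It also ended when its probe sets were averaged (limma adjusted p = 0.152) and without the signal filter (0.0609). Rescaling ended it too, by array medians (limma adjusted p = 0.0616) or by a second quantile normalization (0.0638).

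Enzymes that degrade elastin, with the parts of the elastin receptor, gave 5 falls, 1 rise and 5 that did not pass. Falls numbered 1, Ctsk alone, without mutant replicate 1, and 2 without mutant replicate 2. Rises numbered 3 without wild-type replicate 2. Ctsk, cathepsin K, read 10.77 and 10.83 against 9.86 and 9.89 (-0.93, limma adjusted p = 2.03e-04). Ctss, cathepsin S, fell by 0.49 (limma adjusted p = 0.00675), a call that ended without mutant replicate 1 (0.0704) and without mutant replicate 2 (0.0533). Mmp9, a gelatinase, rose from 6.41 and 6.36, near the filter, to 7.02 and 6.96 (0.60, limma adjusted p = 0.00214). Macrophage elastase, Mmp12, differed by 0.20 and did not pass (limma adjusted p = 0.149), and is named after its value was seen.

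Of 6 integrin chains tested that bind the RGD motif of fibrillin or fibulin-5, 4 fell and 2 did not pass. Itga8 read 8.48 and 8.21 against 7.32 and 7.36 (SE 0.11, limma adjusted p = 4.02e-04). Itgb1 (-0.84, limma adjusted p = 8.96e-04) and Itgb5 (-0.64, limma adjusted p = 0.00338) fell too. Itgav fell by 0.57 (limma adjusted p = 0.00644), a call that ended without mutant replicate 1 (0.0656) and when its 5 probe sets were averaged (-0.19, limma adjusted p = 0.143). Of the TGF-beta ligands that microfibrils store, Tgfb2 read 9.34 and 8.86 against 7.86 and 7.95 (-1.20, limma adjusted p = 7.81e-04). Tgfb3 fell by 0.42 (limma adjusted p = 0.0320), a call that ended without mutant replicate 1 (0.297) and after a second quantile normalization (0.0812). The other 3 genes of that list did not pass.

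**Figure D4:**
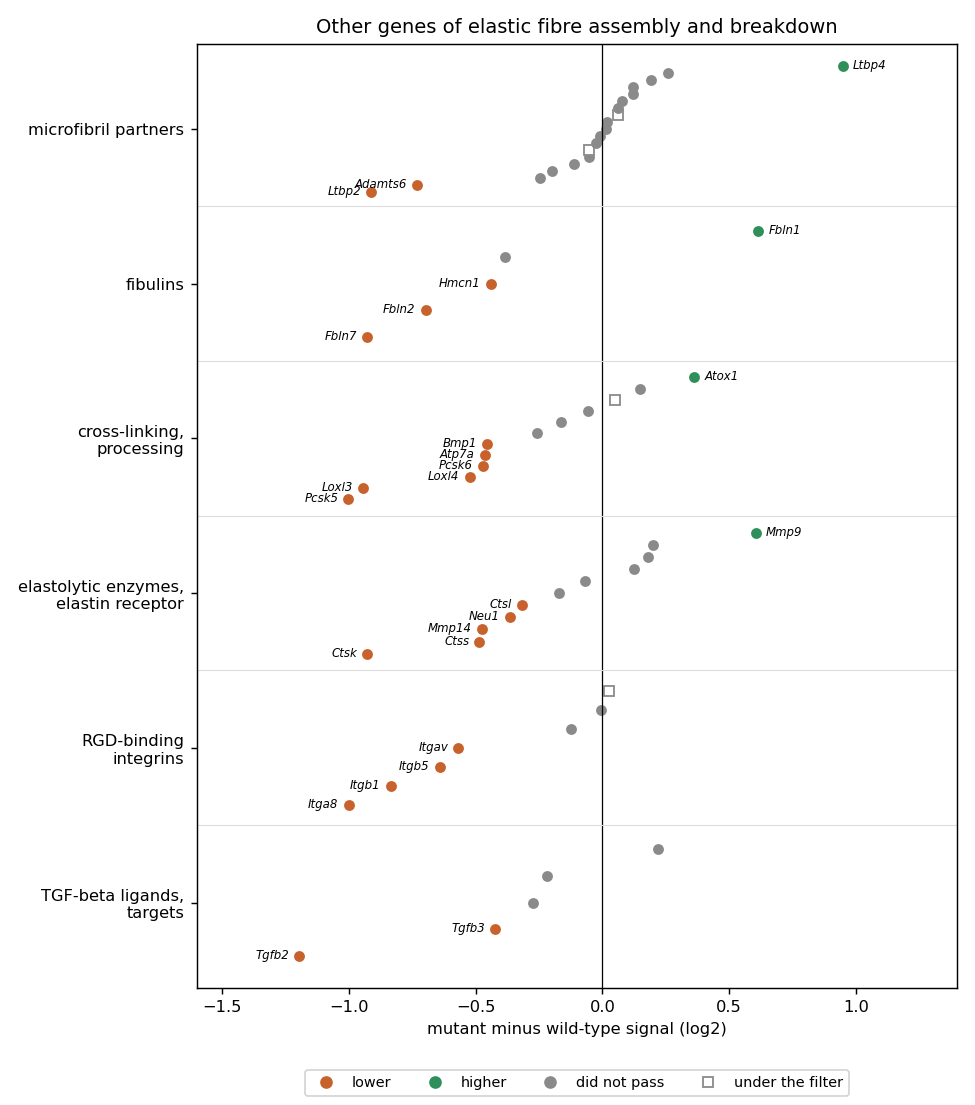
Difference in log2 signal, mutant minus wild-type (horizontal axis), of 59 other genes of elastic fibre assembly, cross-linking, breakdown and cell binding, by list; filled circles passed (named, orange lower, green higher) or did not pass (grey), and open squares lie under the filter. In each list more calls lie to the left of 0 than to the right, and Ltbp4 lies farthest to the right of those called.

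Marker genes of several cell types moved with these differences, where 18.7% of all genes tested passed as lower and 11.1% as higher. All 7 adipocyte markers tested were higher. Their mean log2 signal lay between 10.38 and 10.44 for wild-type and between 12.88 and 12.94 for mutant arrays. The list held no marker particular to brown-like cells, so it cannot show whether the labelled cell type was present. Of 9 fibroblast and progenitor markers 5 fell and none rose (mean signal 10.40 to 10.49 against 9.97 to 10.03). Those that fell were Thy1 (-2.17), Col1a1 (-0.70), Pdgfra (-0.56), Col1a2 (-0.44) and Col3a1 (-0.28), while Cd34 (0.32) and Dlk1 (0.28) did not pass and had higher mutant values with no overlap. Without either mutant array 3 fell, Col1a2 and Col3a1 losing their calls.

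Of 9 smooth muscle and mural markers 6 fell and 1 rose (10.48 to 10.51 against 9.89 to 10.01). The falls were led by Rgs5 (-2.09), Cnn1 (-0.74) and Myh11 (-0.68), and the rise was Cspg4 (0.39). For Rgs5 the mutant signals, 5.70 and 5.62, lay under the filter, and its dimmer probe sets gave -0.60, -0.86 and 0.12. With its probe sets averaged Rgs5 was not tested. Without mutant replicate 1, 2 fell and none rose, as Acta2, Tagln, Myh11, Pdgfrb and Cspg4 lost their calls, and Cspg4 also lost its call without mutant replicate 2. Of 10 macrophage markers 5 fell and none rose (12.85 to 12.89 against 12.51 to 12.52), with Itgam (-0.79), Ptprc (-0.58), C1qa (-0.36), Mrc1 (-0.33) and Csf1r (-0.33) passing. Macrophage markers that fell numbered 2 without either mutant array and 8 without wild-type replicate 1. The part of these cell types in the falls of Fbn2, Mfap5 and Lox was not tested. In such mixed cultures fewer cells of a type and less RNA per cell cannot be told apart.

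Markers of other cell types were dimmer on average. Endothelial markers had a mean signal of 6.93 to 6.95 against 7.08 to 7.23, and of 5 tested only Cdh5 passed, as higher (0.42), a call that ended without mutant replicate 1 (limma adjusted p = 0.420) and without wild-type replicate 1 (0.0685). No mesothelial, lymphocyte or chondrocyte marker passed, of 3, 3 and 2 tested. Without wild-type replicate 2, 1 mesothelial marker passed as lower and 2 lymphocyte markers as higher. Msln, Lrrn4, Cd79a, Acan, Matn1 and Tie1 lay under the filter, whereas the mesothelial marker Wt1 read 9.32 and 8.96 against 8.89 and 8.93, and the endothelial marker Kdr 8.01 and 7.85 against 8.08 and 7.97. Lgr4 itself gave 8.65 and 8.20 under the wild-type label, against 6.18 and 6.09 under the mutant label. The labels do not say that its RNA is lower, and the fall holds only as far as its probe set reports the mutant transcript.

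**Figure D5:**
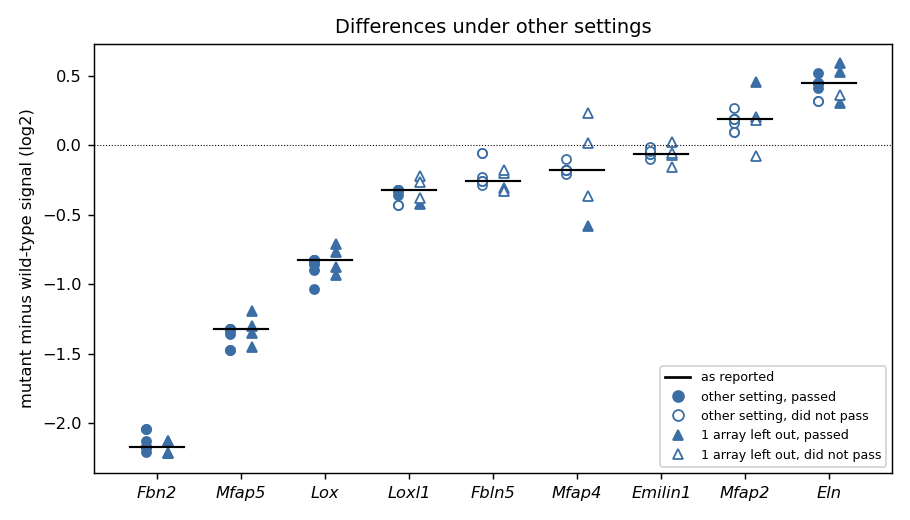
Difference in log2 signal, mutant minus wild-type (vertical axis), of the 9 genes as reported (black bars) and under 12 other settings, of which 4 leave out 1 array (triangles); filled symbols passed an adjusted p of 0.05. Fbn2, Mfap5 and Lox passed in every setting, and the points of Mfap4, Mfap2 and Emilin1 lie on both sides of 0.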

How the data were processed

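For each probe set the authors deposited a log2 signal, made with Partek 6.6 and RMA, per the submitters' processing notes, which name no variant of RMA. RMA subtracts background and equalises arrays, which removes differences in total RNA and compresses differences near background and saturation. The deposited values were still not wholly equal between arrays. Upper quartiles were 8.55 and 8.52 for wild-type, against 8.47 and 8.46 for mutant arrays. Of 45101 probe sets, 64 controls were left out, and 34945 named 1 gene in the platform annotation. Each gene was represented by its probe set of highest mean, tested if that mean was over 6.13, the 40th percentile of those left. The test was limma 3.58.1, run in R 4.3.3 (lmFit, eBayes without trend; 2 residual and 6.21 prior degrees of freedom), 2-sided, with Benjamini-Hochberg adjustment over all 13173 genes and a threshold of 0.05. Precision is limited by the number of arrays.

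The genes and lists were chosen with earlier results of these data known. All genes of the list are named; of each list of other elastic fibre genes, the 3 largest differences among calls, or all calls where 5 or fewer; and the 3 profiles nearest Eln. Cell type markers, outside this rule, were named after their values were seen. A planned comparison of Fbn1 with Fbn2 and Eln was not run, since no probe set named Fbn1. Alternatives covered probe sets, filter, scaling, eBayes options, a replicate block and leaving out each array; the counts per list under these were added after the data were seen.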

Additional observations from a re-analysis of the deposited data

How the results depend on the processing

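The calls of Fbn2, Mfap5 and Lox held under all 12 alternatives run for each gene. The count of called genes on the list ranged from 3 to 6 when 1 array was left out. Calls as lower ranged from 3 to 5 (5 without wild-type replicate 1), and calls as higher from 0 (without mutant replicate 2) to 2 (without wild-type replicate 2). With all probe sets of a gene averaged, calls as higher numbered 0 and Loxl1 joined Fbn2, Mfap5 and Lox. The median difference of the list ranged from -0.42 to -0.17, calls among the other elastic fibre genes from 14 to 35, and calls over all genes from 1851 (without mutant replicate 1) and 2104 (without mutant replicate 2) to 6349 (without wild-type replicate 2). With an array left out, the lone array of its genotype is assumed to vary like the other pair. Of the 26 other elastic fibre genes called, 13 stayed called in every setting that tested them.

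Same-numbered arrays are not stated to share animals, and over genes tested their deviations correlated at 0.16 (2 pairs). With the replicate block, 4879 genes passed, and 5 of the list, Loxl1 being added. Higher genes made up 37.1% of all calls, and 30.7% to 44.1% under other scalings. The causes were not tested. Signals under or near 6.13 limit Hmcn1, Mmp9, Rgs5 and the dimmest Lox and Fbln5 probe sets.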
